A study of Danio rerio with 4 samples.

Results

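The ribosomal protein genes of the adult zebrafish heart were taken as every gene whose symbol starts with rpl or rps and a digit, or with rplp or rpsa, leaving out symbols that start with rps6k, which name kinases. The rule, which reads symbols and no measured value, found 84 of the 31466 features in the gene table, 50 with large subunit and 34 with small subunit symbols. A symbol is not always a ribosomal protein. rps19bp1 (ENSDARG00000091124) names a protein that binds rps19 and is no part of the ribosome. The symbols rpl26 and rpl37 each stand on 2 features. The reference name table calls ENSDARG00000102317 rpl26 but ENSDARG00000101794 atp6v0e1, a proton pump subunit, and it calls the second rpl37 feature, ENSDARG00000076360, COA1. This table is of another assembly than the files, so its names may not fit their features, and ENSDARG00000101794 was measured at 1752 CPM, a level like that of the abundant members. In the other direction, 4 genes that this table names as ribosomal carry clone names in the files and so are not members, among them rps20 as FO704736.1.

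A ribosome is built from a large and a small subunit, each a scaffold of ribosomal RNA dressed with many small proteins, most of them present as a single copy per particle and the stalk proteins as several. The messenger RNAs of these proteins are among the most abundant in any cell, and their translation, rather than their level, is the step best known to respond to nutrients and stress through the TOR pathway. Teleost fish kept some ribosomal protein genes as duplicates, and mammals carry related copies too, such as RPL22L1 beside RPL22.

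The hearts came from adult fish of genotype AB that all received 4-thiouridine (4sU), a uridine analogue that enters new RNA, by injection into the chest 1 h before the operation and were kept in morphine water after it. In the cryoinjured group a cooled probe was pressed on the ventricle, and in the sham group the pericardium was opened but the probe was not placed. Hearts were collected 6 h later, which is written 6 hpci for cryoinjured and 6 hps for sham hearts. They were pooled into 2 libraries per group, fixed in methanol and profiled by droplet single-cell sequencing of 3′ tags. Each unique molecular identifier (UMI) counts a captured RNA molecule once, so gene length does not enter these counts, and labeled and unlabeled RNA are added together.

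The libraries held 86891164 to 136777379 UMIs in 15971 to 23000 barcodes, of which 12333 to 15940 cells each passed the filters, and pairs of libraries shared 84 to 293 barcode sequences. Cells were put into classes by marker genes that contain no ribosomal protein gene, and 9 classes passed a minimum of 30 cells per library. They were 12470 ventricular and 8088 atrial cardiomyocytes, 3431 endocardial, 549 epicardial, 2130 fibroblast, 924 smooth muscle and mural cells, 2077 macrophages, 889 neutrophils and 3026 erythrocytes. Levels are given in CPM, the UMIs of a gene or list scaled to equal non-mitochondrial totals. The marker list of each non-muscle class was highest in its own class, as the neutrophil list with 16324 CPM in neutrophils and at most 910 CPM in the others. The atrial list was slightly higher in ventricular than in atrial cells (137405 and 132027 CPM), since both lists share abundant muscle genes and the chambers were told apart by the genes they do not share. Muscle and haemoglobin RNA was found in all classes, and its level is given beside the shares of the classes. Over all barcodes before filtering, cryoinjured replicate 2 stood apart, with 39.2% mitochondrial UMIs against 25.4% to 30.1% in the other libraries. In the gated cells it did so less, with 32.4% against 27.8% to 30.9% in atrial and 28.1% against 24.1% to 28.7% in ventricular cardiomyocytes. In epicardium it was lowest, with 14.4% against 17.1% to 20.4%.

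The members were among the most abundant genes measured, and together they took 32.5% and 30.2% of the non-mitochondrial UMIs of sham replicates 1 and 2 and 33.1% and 28.5% of those of cryoinjured replicates 1 and 2. Averaged over the 9 classes, the highest large subunit levels were those of rplp1 (10153 CPM), which forms the flexible stalk that recruits elongation factors, and RPL41 (10124 CPM), the smallest protein of the particle. They were followed by rpl36a, rpl39 and rplp0, the base of the stalk. The highest small subunit levels were those of rps2 (6508 CPM), at the messenger RNA entry side, rps27a, which is made as a fusion with ubiquitin, rps29, rps24 and rps7. At the other end stood rps8b (2.81 CPM), the second rpl37 feature (11.4 CPM), rps19bp1 (12.9 CPM) and rpl7l1 (22.9 CPM). All other members lay between 249 and 10153 CPM, and the median over members was 4119 CPM for large and 4533 CPM for small subunit symbols.

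A single member, rpl13a, served the study as the reference gene of its quantitative PCR. That PCR used RNA of cryoinjured ventricles from tamoxifen and vehicle treated fish at a later time. The counts here are of cell classes at 6 h after cryoinjury or sham operation, so they do not cover the samples of that PCR. The primers of rpl13a are shown.
rpl13a forward primer: gcagaatcttctggaggactg
rpl13a reverse primer: aaccatgcgctttctcttgt
The level of rpl13a, a large subunit protein, differed between classes with a mean of 3498 CPM in ventricular cardiomyocytes, 5124 CPM in smooth muscle and mural cells, 6511 CPM in epicardium and 946 CPM in erythrocytes. In ventricular cardiomyocytes it was 3847 and 3252 CPM in the sham and 3644 and 3248 CPM in the cryoinjured libraries, so that the groups overlapped. In macrophages it was 4513 and 3884 CPM against 4701 and 5179 CPM, and the nearest libraries of the groups (4513 and 4701 CPM) differed by less than the sham libraries did from each other. The edgeR log2 fold change of rpl13a at 6 hpci against 6 hps ranged from 0.22 (SE 0.35) in neutrophils to 1.1 (SE 0.45) in epicardium, with adjusted p-values of 0.524 or more in every class.

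The share of RNA that went to ribosomal protein genes was compared between cell types. It was highest in epicardium, the outer cell layer of the heart, at 45.9% and 42.1% of non-mitochondrial UMIs in the sham and 51.3% and 54.5% in the cryoinjured libraries, a mean of 48.4% ± 5.55 (SD, n = 4 libraries). Fibroblasts followed with 42.1% ± 3.94, endocardium with 38.8% ± 3.31, smooth muscle and mural cells with 37.8% ± 2.03 and macrophages with 37.6% ± 4.08. Lower shares were measured in atrial cardiomyocytes (30.7% ± 1.98), neutrophils (30.6% ± 1.99) and ventricular cardiomyocytes (26% ± 2.48). In erythrocytes, which spend most of their RNA on haemoglobin, the share was 8.64%, 7.06%, 8.21% and 6.73%, and 18.6% once haemoglobin genes were also taken out of the total.

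In that order, the 3 classes from endocardium to macrophages lay within 1 SD of each other, as did atrial cardiomyocytes and neutrophils. The 4 shared muscle genes myl7, tnnt2a, cmlc1 and actc1a took 1.3% to 5.50% of UMIs in epicardium, 3.18% to 6.67% in fibroblasts, 3.51% to 5.72% in endocardium, 5.11% to 10.3% in smooth muscle and mural cells, 3.19% to 8.26% in macrophages and 5.14% to 9.42% in neutrophils. With a scaled ventricular profile taken out, mean shares were 45.9% in endocardium, 50.4% in smooth muscle and mural cells and 46.9% in macrophages. Endocardium was then below macrophages in sham replicate 1 (49.6% and 49.8%) and cryoinjured replicate 1 (44.6% and 49.2%). It was above them in sham replicate 2 (40.5% and 39.8%) and cryoinjured replicate 2 (49.1% and 48.6%). The part of muscle RNA in the order of the classes was not tested. The lowest epicardial library (42.1%) was above the highest library of smooth muscle and mural cells (39.7%). It was not above the highest of fibroblasts (46.7%), macrophages (42.5%) or endocardium (42.2%), which came from another library. Within each library the epicardial share was above that of fibroblasts, macrophages and endocardium. Against fibroblasts it was 45.9% and 44.0% in sham replicate 1 and 42.1% and 38.0% in sham replicate 2. In cryoinjured replicates 1 and 2 it was 51.3% against 39.9% and 54.5% against 46.7%. The lowest atrial library (28.4%) lay just above the highest ventricular one (28.1%). Shares varied among cells of a class as well, and in macrophages of sham replicate 2 they ran from 23.0% at the 10th to 51.3% at the 90th percentile of cells.

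**Figure D1:**
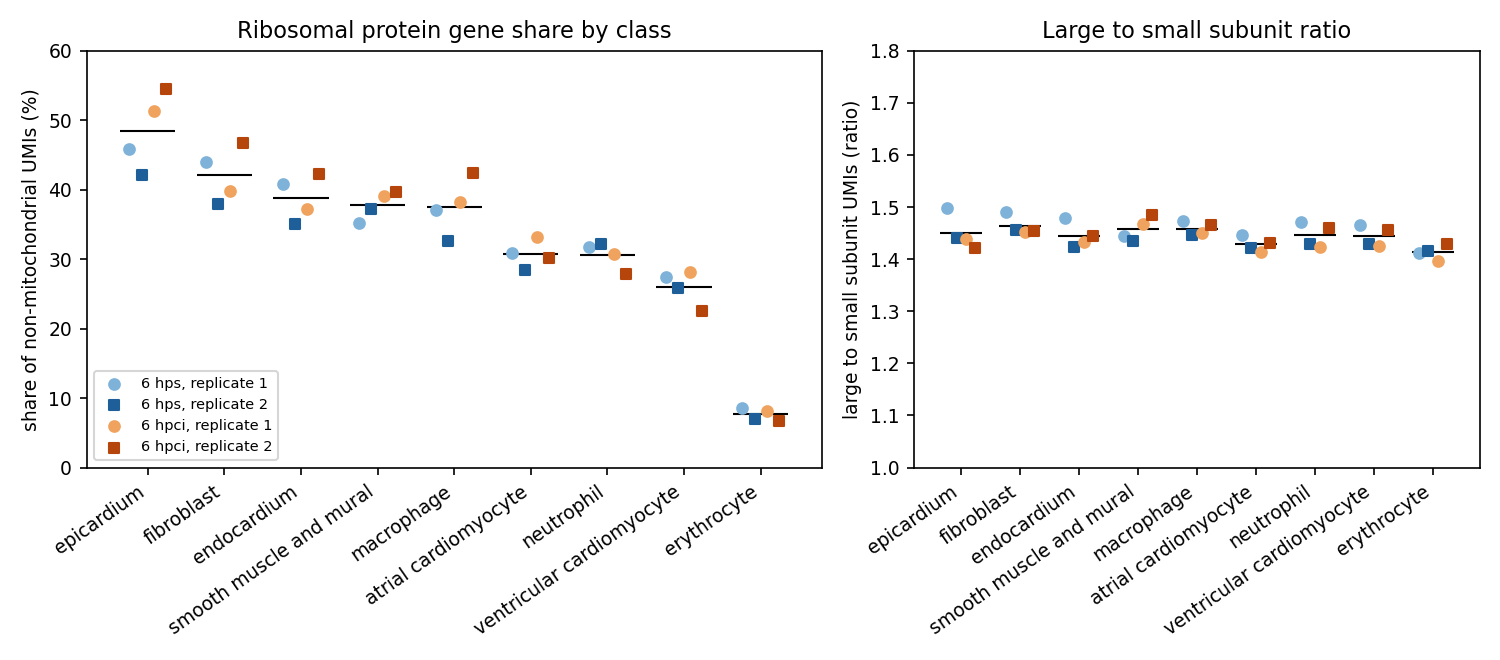
Left, share of non-mitochondrial UMIs in ribosomal protein genes (%) for each of the 9 classes; right, ratio of large to small subunit UMIs on an axis that starts at 1. Points are libraries (circles, replicate 1; squares, replicate 2; blue, 6 hps; orange, 6 hpci) and lines are means of 4 libraries. The share falls from 48.4% in epicardium to 7.66% in erythrocytes while the ratio stays between 1.396 and 1.498.

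Each member was then tested in each class against the mean of the other classes, with edgeR's quasi-likelihood test on UMI counts summed per library and class, the library as a term, TMM scaling and Benjamini-Hochberg adjustment over the 7779 genes tested. In epicardium 81 of 84 members rose, 49 of 50 large and 32 of 34 small subunit symbols, where 14.9% of all genes rose. The median log2 fold change of the members was 0.89, against -0.10 for all genes. The 3 largest rises were rpl7l1, a gene related to rpl7, by 1.24 (SE 0.17, adjusted p = 4.4e-08), rps9 by 1.16 (SE 0.13, adjusted p = 1.7e-10) and rps2 by 1.13 (SE 0.14, adjusted p = 2.7e-09). The level of rps9 was 6605, 6832, 7407 and 8971 CPM in the epicardial libraries (sham 1, sham 2, cryoinjured 1, cryoinjured 2) and 3326, 3633, 3332 and 3074 CPM in the ventricular ones. The groups of libraries did not overlap. The 3 members not past the threshold were rps8b, the second rpl37 feature and rps19bp1. The rpl26 feature that the name table calls atp6v0e1 did pass it. Fibroblast markers (1746 CPM) and markers of surface epithelium (11689 CPM) were also seen in epicardial cells, where the epicardial list stood at 11921 CPM. In cryoinjured replicate 1 the surface epithelium list (11020 CPM) was above the epicardial list (5910 CPM), and in the other libraries it was below it. The part of these other markers in the result was not tested. Of the alternatives, scaling by library sizes alone and by DESeq2 size factors also gave 81 rises, and leaving out single libraries gave 80 or 81. Here and below, the shares of all genes called are those of the main fit. They are not given for the alternatives, so counts of members under these show a dependence on processing and no excess over a background.

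In fibroblasts 34 members rose and none fell, where 10.9% of all genes rose, with rises led by rpl7l1 (0.68, SE 0.16), rpl9 (0.61, SE 0.14) and rps9 (0.51, SE 0.13) and adjusted p-values of 0.0011, 0.00073 and 0.0049. The number depended on the libraries and the scaling, with 14 rises without sham replicate 1, 80 with library sizes alone and 51 with DESeq2 size factors, but in none of these did a member fall. Levels of rpl9, a large subunit protein, in fibroblasts were 4612, 4134, 3696 and 5438 CPM in the order above, all higher than the 1900, 2064, 1996 and 1690 CPM of ventricular cardiomyocytes. In the cells called fibroblasts the epicardial marker list stood at 5861 CPM, above the fibroblast list at 4314 CPM, and ranged from 2483 CPM in cryoinjured replicate 1 to 12393 CPM in cryoinjured replicate 2. The surface epithelium list stood at 7055 CPM there, and the part of these cells in the result was not tested.

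Both muscle classes showed falls. In ventricular cardiomyocytes 37 members fell and 3 rose, where 22.4% of all genes fell and 26.8% rose. Without sham replicate 2 the falls numbered 70, with library sizes alone 66, with DESeq2 size factors 79, without mitochondrial and haemoglobin genes 56, and with no low-count filter or at most 30% mitochondrial UMIs 16. In atrial cardiomyocytes 51 fell and 2 rose, where 21.9% fell and 26.8% rose, but with library sizes alone 14 fell and 3 rose. The largest fall of both was rplp2l, a copy of the stalk protein gene rplp2, by 0.85 (SE 0.17, adjusted p = 3.3e-05) in ventricular and by 0.96 (SE 0.17, adjusted p = 6.4e-06) in atrial cells on the log2 scale. It was followed in ventricular cells by rpl9 (-0.66), and in atrial cells by rpl19 (-0.60) and rps26l (-0.57). The rises were confined to features of low level: rps8b (1.11, SE 0.22), the second rpl37 feature (1.01, SE 0.17) and rps19bp1 (0.55, SE 0.17) in ventricular, and the first 2 of these (0.60 and 0.79) in atrial cells. The level of rps8b was 5.14, 5.10, 4.11 and 5.45 CPM in ventricular cells and 1.4, 3.97, 2.34 and 1.72 CPM in endocardium, the latter from 7 to 23 UMIs per library.

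In neutrophils 80 of 84 members fell and none rose, where 4.45% of all genes fell. The leading falls were rpl23a, near the exit of the peptide tunnel, by 0.63 (SE 0.15, adjusted p = 0.00084), rps18 by 0.63 (SE 0.16, adjusted p = 0.0024) and rps6, the substrate of S6 kinase, by 0.60 (SE 0.15, adjusted p = 0.0015). This count rested on the scaling and on the cryoinjured libraries. With library sizes alone no member fell and 1 rose, while all genes then had a median of 0.39 in place of -0.06. Without cryoinjured replicate 1 the falls numbered 35, and without cryoinjured replicate 2 they numbered 6. The rps6 levels show how close the classes are, with 1750, 2029, 1603 and 2159 CPM in neutrophils and 1859, 1757, 1616 and 1948 CPM in ventricular cardiomyocytes.

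In the other classes few members moved. In endocardium 1 rose, rpl7l1 (0.48, SE 0.15), and 2 fell, the second rpl37 feature (-0.93, SE 0.22) and rpl22l1 (-0.45, SE 0.15), where 41.2% of all genes changed in either direction. Without cryoinjured replicate 2 the endocardial falls numbered 36, and with library sizes alone 79 members rose and rpl22l1 stood at 0.07. In smooth muscle and mural cells and in macrophages edgeR called 0 of 84, where 7.34% and 22.2% of all genes changed, and at an unadjusted p under 0.05 it gave 2 and 1 members. DESeq2's own test was not run on class contrasts. With library sizes alone 69 and 67 members rose in these classes, and the shares of all genes just given are not of that scaling. In smooth muscle and mural cells 2 members passed without sham replicate 1 and 2 without cryoinjured replicate 2, and in macrophages 1 passed without sham replicate 1.

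Erythrocytes had the lowest share of ribosomal protein RNA (mean 7.66%). With TMM scaling, members went in both directions there. There 8 members rose and 5 fell, where 5.05% of all genes rose and 12.3% fell. The rises were led by rpsa, the laminin receptor protein of the small subunit (0.86, SE 0.13), rplp0 (0.81, SE 0.14) and rpl22l1 (0.74, SE 0.14), and also held rplp2l, rps27.1, rpl12, rps12 and rpl10. The falls were rpl7l1 (-1.77, SE 0.29), rps27.2 (-0.74, SE 0.15), rps9 (-0.70, SE 0.15), rplp1 and rpl17. With library sizes alone, which let haemoglobin set the scale, all 84 members fell, and rpsa, rplp0 and rpl22l1 stood at -1.16, -1.23 and -1.31. Counts without sham replicate 2, cryoinjured replicate 1 and cryoinjured replicate 2 were 20, 26 and 26.

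**Figure D2:**
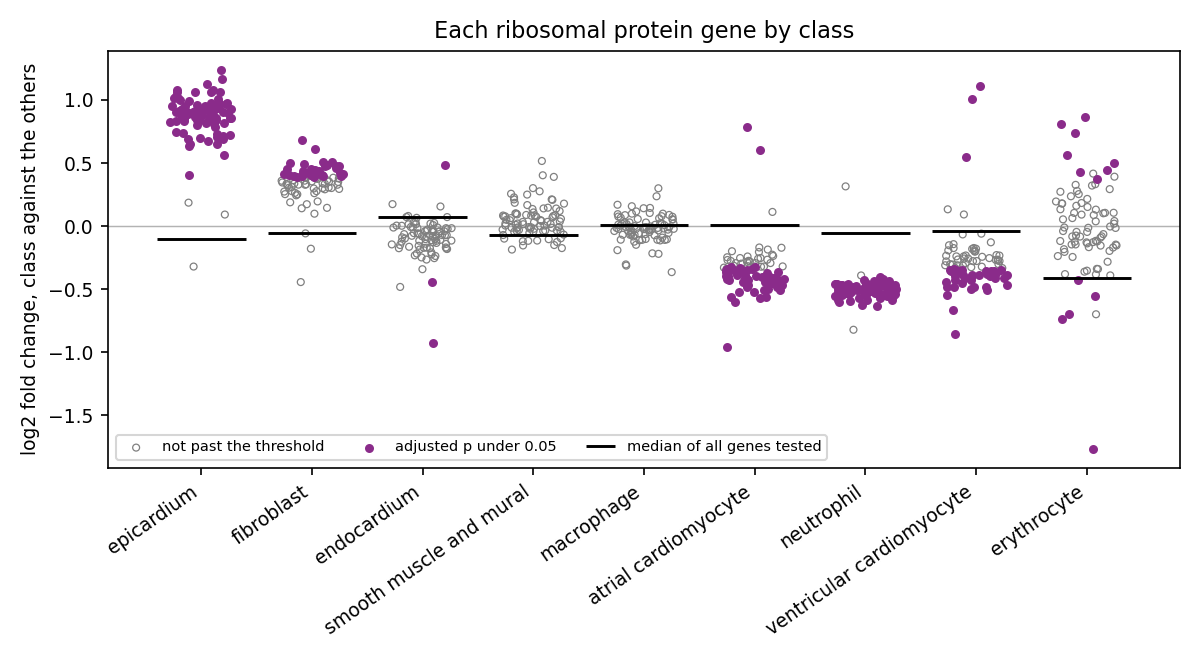
The log2 fold change of each ribosomal protein gene in a class against the mean of the other 8 classes, one point per gene. Filled points passed an adjusted p of 0.05 in edgeR and black lines are the median of all 7779 genes tested. In epicardium 81 members are filled and above 0, and in neutrophils 80 are filled and below 0.

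Large and small subunit genes moved together. The ratio of large to small subunit UMIs averaged between 1.41 in erythrocytes and 1.46 in fibroblasts. Over single libraries it ran from 1.396 in erythrocytes to 1.498 in epicardium. It was 1.44 ± 0.02 in ventricular and 1.43 ± 0.01 in atrial cardiomyocytes and 1.46 ± 0.01 in macrophages (SD, n = 4). Between groups, the cryoinjured libraries lay below both sham libraries in epicardium (means 1.43 and 1.47) and fibroblasts (1.45 and 1.47) and above both in smooth muscle and mural cells (1.48 and 1.44). In the other 6 classes they overlapped. The ratio is a count of UMIs over unequal numbers of genes and not a ratio of proteins.

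Members that occur as pairs of copies were compared by the share of one copy in the UMIs of its pair, a measure that does not depend on the scaling between classes. There were 7 such pairs, and the reads of near-identical copies may be split or dropped by the authors' counting, so the absolute share of each pair is uncertain. The muscle RNA found in all classes also enters these shares, and its part in them was not tested. The stalk protein copy rplp2l had 26.5%, 34.4%, 36.4% and 27.7% of its pair in ventricular and 33.6%, 34.7%, 40.2% and 30.9% in atrial cardiomyocytes (sham 1, sham 2, cryoinjured 1, cryoinjured 2). In every other class the 4 libraries lay between 41.2% and 59.0%, with class means from 46.0% in neutrophils to 53.0% in macrophages. The cardiomyocyte classes and the rest did not overlap in summed UMIs. In medians over cells they did, since neutrophils of sham replicate 1 (35.5%) and cryoinjured replicate 2 (38.7%) lay below atrial cells of cryoinjured replicate 1 (39.1%). In level, rplp2 was 5113 CPM in ventricular cells and 4914 CPM in macrophages, and rplp2l was 2309 and 5613 CPM.

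The zinc finger protein copy rps27.2 took 42.1% ± 1.46 of its pair in ventricular and 41.8% ± 2.1 in atrial cardiomyocytes, 42.1% ± 2.1 in smooth muscle and mural cells and 39.6% ± 1.12 in fibroblasts (SD, n = 4). It took 36.7% ± 3.30 in epicardium, 32.6% ± 0.37 in endocardium, 32.6% ± 2.00 in neutrophils, 29.2% ± 3.15 in macrophages and 20.0% ± 1.75 in erythrocytes. Here all 3 muscle classes lay at the top with fibroblasts, and blood and immune classes with endocardium at the bottom. Every erythrocyte library (17.5% to 21.5%) was below every library of the other classes, the lowest of which was 24.6% in macrophages of cryoinjured replicate 2. In medians over cells this separation across libraries ended, with 23.1% in erythrocytes of sham replicate 2 and of cryoinjured replicate 1 against 22.7% in those macrophages. Within each library the erythrocyte median was below that of macrophages. The values were 20.0% against 30.2%, 23.1% against 28.6%, 23.1% against 27.6% and 16.7% against 22.7% (sham 1, sham 2, cryoinjured 1, cryoinjured 2).

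For rps26l, a copy of rps26, the share was lower in atrial (54.1% ± 1.89) and ventricular cardiomyocytes (57.2% ± 1.1) than the 59.0% to 61.7% of the other class means. Every atrial library (51.6% to 56.2%) was below every library of the 7 non-cardiomyocyte classes (57.9% or more), while ventricular libraries reached 58.6% and overlapped with them. rpl22l1 took 15.5% ± 1.03 of its pair in epicardium and 25.6% ± 1.95 in smooth muscle and mural cells and 25.9% ± 3.55 in erythrocytes, with 17.3% to 21.6% elsewhere. In 7 classes the rpl22l1 share was higher in each cryoinjured library than in each sham library, as in macrophages (22.9% and 24.3% against 20.3% and 18.8%) and ventricular cardiomyocytes (21.3% and 19.2% against 17.1% and 18.1%), and in endocardium and in smooth muscle and mural cells the groups overlapped. rpl5b, a copy of the gene for the protein that carries the ribosomal 5S RNA, varied little, from 34.5% to 39.3%. The last pairs were one-sided, with rpl7l1 at 0.19% to 0.76% of its pair and rps8b at 0.03% to 0.13%.

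**Figure D3:**
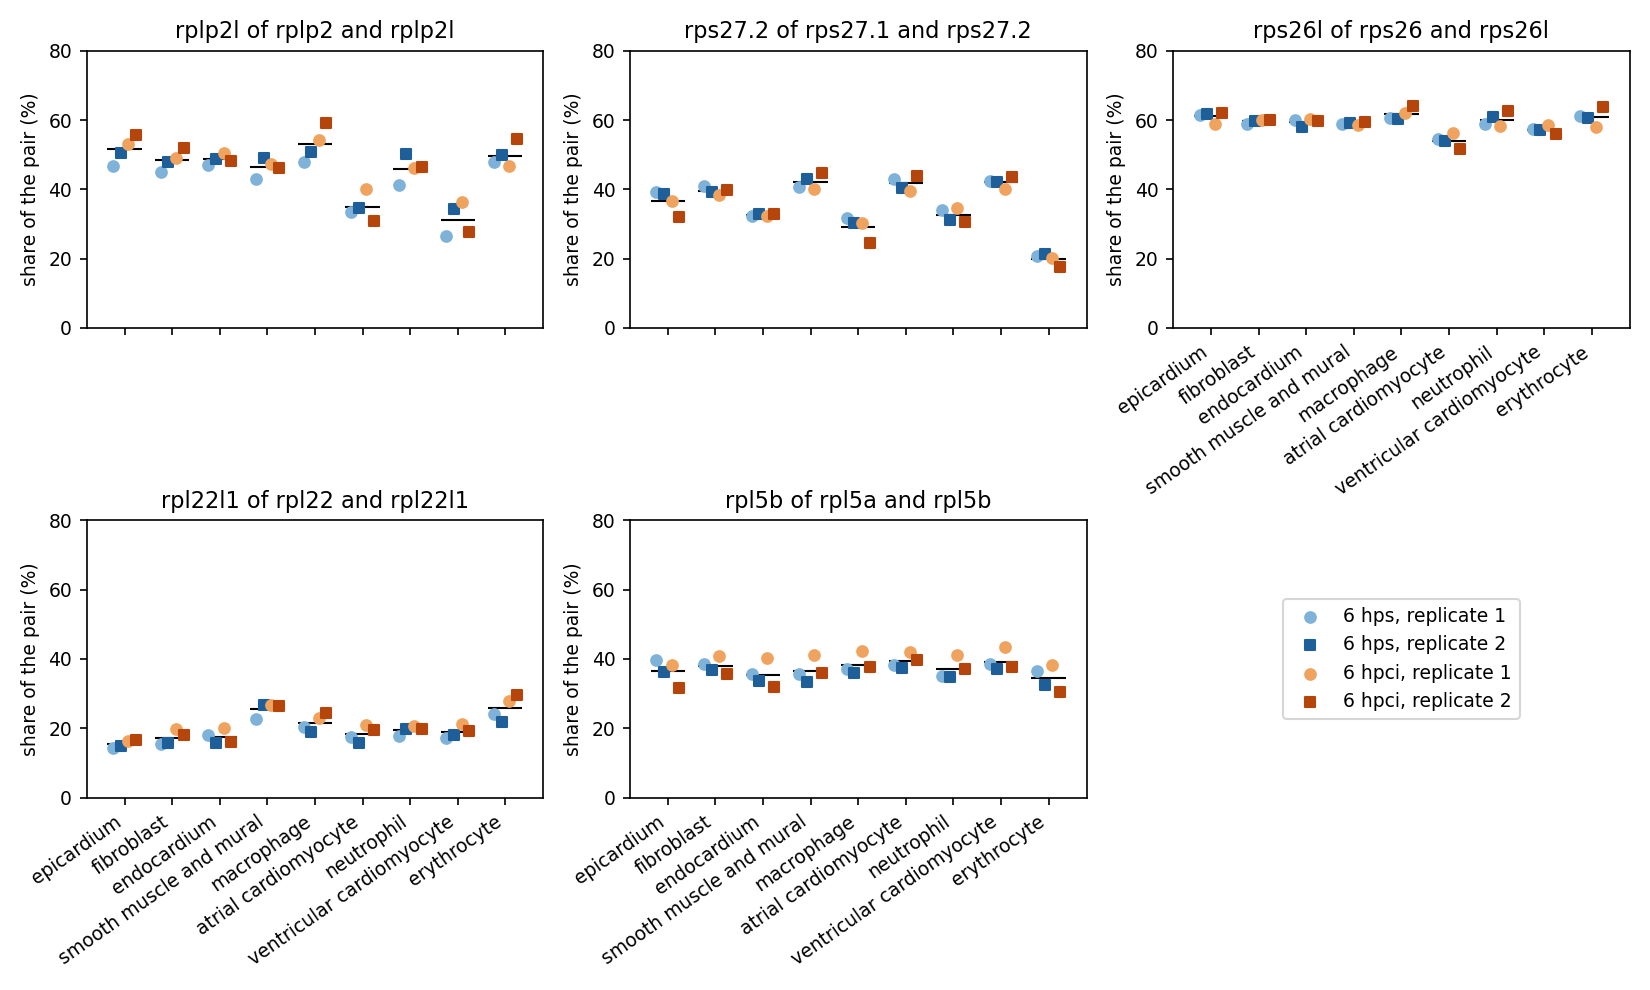
Share of one copy in the UMIs of its pair (%) for the 5 pairs in which both copies were abundant, by class. Points are libraries (circles, replicate 1; squares, replicate 2; blue, 6 hps; orange, 6 hpci) and lines are means of 4. For rplp2l the cardiomyocyte libraries (26.5% to 40.2%) lie below all others, and for rps27.2 the erythrocyte libraries lie lowest.

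The pair of features named rpl26 behaved differently from all copies. Of the UMIs of both, the minor feature (ENSDARG00000102317) took 8.87% to 9.94% in the 9 classes of sham replicate 1, 30.5% to 35.8% in sham replicate 2, 6.86% to 8.01% in cryoinjured replicate 1 and 2.02% to 2.76% in cryoinjured replicate 2. The split was nearly the same in every cell type and differed between libraries, including the 2 sham libraries, and this was noticed after the values were seen. In macrophages the minor feature was 213, 573, 181 and 43.0 CPM, and the major one (ENSDARG00000101794) was 2061, 1306, 2335 and 2112 CPM. The sum of both in macrophages was 2274, 1879, 2516 and 2156 CPM and did not separate the groups. In epicardium the sum did separate them, with 2759 and 2303 CPM in the sham against 3645 and 2816 CPM in the cryoinjured libraries, and in the other classes the groups overlapped. The source of the split was not tested.

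**Figure D4:**
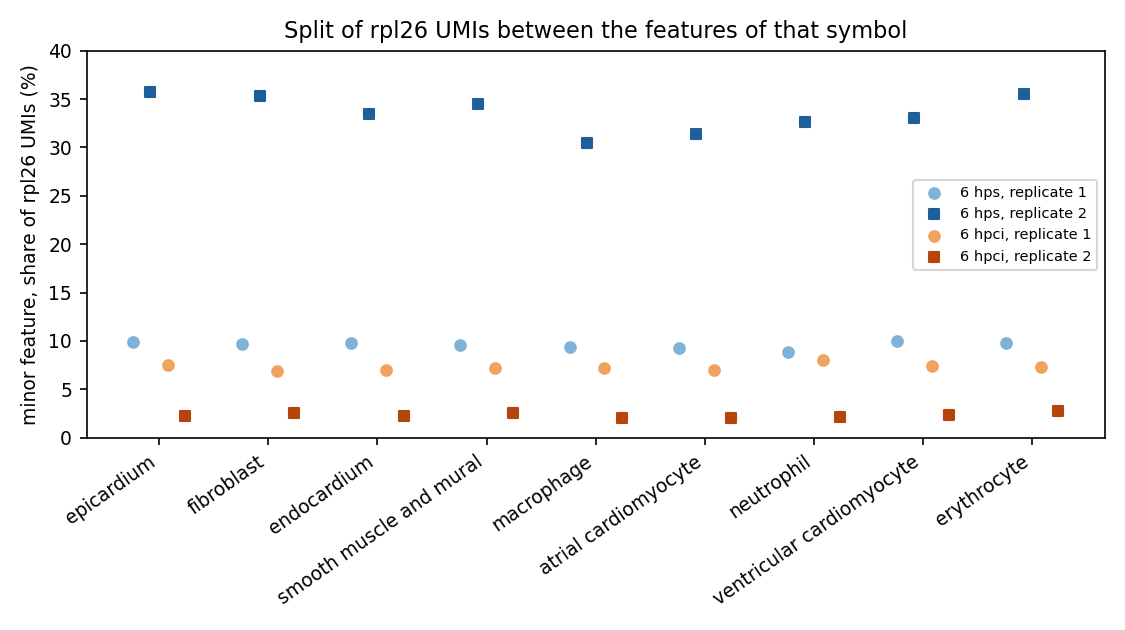
Share of the minor of both rpl26 features in their summed UMIs (%), by class. Points are libraries (circles, replicate 1; squares, replicate 2; blue, 6 hps; orange, 6 hpci). Each library keeps its level over all 9 classes, with sham replicate 2 at 30.5% to 35.8% and the other libraries under 10%.

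Injured and sham hearts were then compared within each class. The ribosomal protein share was higher in each cryoinjured library than in each sham library in epicardium (52.9% ± 2.27 against 44.0% ± 2.67, SD, n = 2 per group), macrophages (40.3% ± 3.03 against 34.8% ± 3.19) and smooth muscle and mural cells (39.4% ± 0.47 against 36.2% ± 1.43). It was lower in each of them in neutrophils (29.3% ± 2.13 against 32.0% ± 0.36). In macrophages the libraries had 37% and 32.5% against 38.2% and 42.5%, so the nearest libraries of the groups were 37% and 38.2%. In the other 5 classes the groups overlapped, as in ventricular cardiomyocytes with 27.5% and 25.9% against 28.1% and 22.6%. In atrial cardiomyocytes the groups overlapped, but within each replicate number the cryoinjured library was higher (30.9% and 33.2% in replicate 1, 28.4% and 30.2% in replicate 2). With 2 libraries per group an exact permutation test cannot go below p = 0.33, and no p is given for a share.

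Muscle RNA also differed between the groups. The 4 muscle genes took 5.50% and 4.57% of epicardial UMIs in the sham against 3.54% and 1.3% in the cryoinjured libraries, and 8.26% and 7.10% against 5.91% and 3.19% in macrophages. In smooth muscle and mural cells they took 10.3% and 6.08% against 5.89% and 5.11%, and in neutrophils 9.42% and 8.62% against 7.35% and 5.14%, so muscle RNA was lower after injury in all 4 classes. After a ventricular profile scaled to these genes was taken out, an alternative added after seeing the data, the shares of macrophages (49.8% and 39.8% against 49.2% and 48.6%) and of smooth muscle and mural cells (54.2% and 46.4% against 51.0% and 50.1%) overlapped. In epicardium they were 57.2% and 50.3% against 61.9% and 57.9%, and in neutrophils 39.7% and 43.2% against 35.8% and 31.0%, which remained apart. In epicardium the stricter marker gate also ended the separation, with 53.7% and 45.7% against 52.1% and 53.3%. Haemoglobin took 1.38% and 3.68% of all neutrophil UMIs in the sham and 7.38% and 5.17% in the cryoinjured libraries. These are of all UMIs, mitochondrial ones included, while the muscle values above are of non-mitochondrial UMIs. Among UMIs outside mitochondrial and haemoglobin genes the neutrophil shares of 32.3% and 33.9% against 34.1% and 29.9% overlapped. The macrophage groups stayed apart with the stricter gate (38.7% and 32.5% against 39.5% and 41.6%). A share can also move because other RNA moves, which cannot be told apart from a change in the members here.

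In the test of single genes, edgeR's quasi-likelihood test called none of the members at 6 hpci against 6 hps in any of the 9 classes, where 0.0% of all genes were called in 8 classes and 0.0137% in endocardium. DESeq2 called none of the members either. At an unadjusted p under 0.05 edgeR gave 69 of 84 members in atrial cardiomyocytes, 69 of 83 in epicardium and 59 of 83 in macrophages, all of them higher at 6 hpci, where 8.93%, 8.79% and 4.01% of all genes were at that level. It gave 3 members in ventricular cardiomyocytes, 1 in endocardium, 0 in fibroblasts, 5 in smooth muscle and mural cells, 1 in neutrophils and 0 in erythrocytes, where the shares of all genes were 5.16%, 2.77%, 4.73%, 6.16%, 3.17% and 5.14%. By DESeq2 the unadjusted numbers in the 9 classes were 1, 23, 1, 73, 2, 2, 6, 0 and 1, in the order ventricular, atrial, endocardium, epicardium, fibroblast, smooth muscle and mural, macrophage, neutrophil and erythrocyte. The shares of all genes above are edgeR's. Those of DESeq2 are not given, so its numbers cannot be set against a background here. Neither test paired the libraries by replicate number. With the replicate number as a block the unadjusted edgeR counts changed, as given below with the other alternatives.

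The members nevertheless lay together above 0. Their median log2 fold change was 0.40, 0.67, 0.63, 1.21, 0.70, 0.51, 0.77, 0.17 and 0.25 in the same order, and 79 to 82 of the 80 to 84 members tested were above 0 in each class, while the median over all genes lay between -0.09 and 0.08. Their place relative to 0 depended on the scaling. With library sizes alone the member medians were -0.03, 0.08, 0.05, 0.31, 0.10, 0.09, 0.23, -0.12 and -0.10, and the median over all genes fell to between -0.85 in epicardium and -0.21 in neutrophils. Relative to all genes the members were thus higher under both scalings, except that in neutrophils their median was -0.11 against -0.06 for all genes without cryoinjured replicate 1 and 0.04 against 0.06 with the stricter gate. Also, against the total of UMIs the sign of their median turned in ventricular cardiomyocytes, neutrophils and erythrocytes.

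Single libraries carried the nearest approach to a call. In epicardium, whose libraries held 82 to 218 cells, members passed the threshold when a cryoinjured library was left out. No share of all genes is given for these fits, so the members that passed are not counted. The major rpl26 feature stood at 1.66 without cryoinjured replicate 1 and at 1.48 without cryoinjured replicate 2. The minor rpl26 feature stood at -1.86 without cryoinjured replicate 1. The minor rpl26 feature passed as lower without sham replicate 1 in ventricular cardiomyocytes, smooth muscle and mural cells and erythrocytes, and without cryoinjured replicate 1 in atrial cardiomyocytes, fibroblasts and neutrophils. In all of these a group was left with a single library, whose spread was taken to equal that of the group with both libraries.

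In macrophages the largest log2 fold changes were those of rpl22l1 (1.06, SE 0.37), rpl5b (0.99, SE 0.39), rps6 (0.96, SE 0.37), the major rpl26 feature (0.95, SE 0.38) and rplp2l (0.95, SE 0.31), each with an adjusted p of 0.999. In CPM rpl22l1 was 927 and 778 in the sham and 1163 and 1249 in the cryoinjured macrophage libraries. rps6 was 2237 and 2105 against 2125 and 3634 CPM, so a single cryoinjured library stood out. Among members with a mean of at least 50 CPM, the lowest was the minor rpl26 feature (-1.24, SE 0.78). Next came rplp2 (0.51, SE 0.30), rps27.2 (0.52, SE 0.35), rpl38 (0.62, SE 0.32) and RPL41 (0.66, SE 0.28). With library sizes alone rplp2 and rps27.2 turned to -0.04 and -0.02. Without the limit on CPM the lowest small subunit symbol stood at -0.14 with TMM scaling.

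In ventricular cardiomyocytes the largest values were those of the major rpl26 feature (0.69, SE 0.30), rpl22l1 (0.61, SE 0.27), rpsa (0.54, SE 0.22), rpl5b (0.53, SE 0.28) and rpl29 (0.49, SE 0.29), with adjusted p = 0.757 for each. Among members with a mean of at least 50 CPM, the lowest was the minor rpl26 feature (-1.52, SE 0.82). Next came rplp2 (0.26, SE 0.24), rps2 (0.30, SE 0.22), rpl11 (0.31, SE 0.22), which binds the 5S RNA next to rpl5, and rpl36 (0.31, SE 0.23). The last 4 turned to between -0.18 and -0.12 with library sizes alone. Without the limit on CPM the lowest small subunit symbol stood at 0.20 with TMM scaling. In CPM rpl22l1 was 628 and 629 against 819 and 575, and the groups overlapped.

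Over the remaining classes the highest member was rpl22l1 in atrial cardiomyocytes (0.94) and erythrocytes (0.57), rpl3 in smooth muscle and mural cells (0.87), and the major rpl26 feature in endocardium (0.88), epicardium (1.54), fibroblasts (0.98) and neutrophils (0.51). The lowest was the minor rpl26 feature in each of them except epicardium, where rps19bp1 stood at -0.95 (SE 0.62). rpl7l1 was lower in CPM in both cryoinjured than in both sham libraries in ventricular cardiomyocytes (31.4 and 20.2 against 15.8 and 7.02) and macrophages (33.6 and 23.5 against 15.8 and 10.7). In these classes 45.7% and 47.4% of all genes lay lower in the same way, so this did not set rpl7l1 apart. In atrial cardiomyocytes (34.5 and 16.3 against 20.5 and 9.05) the groups overlapped and the cryoinjured library was lower within each replicate number.

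Counting members whose CPM did not overlap between groups gave 54 of 83 above in epicardium, 44 of 83 in macrophages, 32 of 83 in smooth muscle and mural cells and 24 of 84 in atrial cardiomyocytes, where 3.79%, 2.29%, 4.98% and 3.33% of all genes lay above. In neutrophils 27 of 83 lay below, where 27.9% of all genes did, and in ventricular cardiomyocytes 14 of 84, where 45.7% did. The first 4 shares were over the background of their class, the neutrophil share was near it and the ventricular share was under it. Muscle RNA moved in the same libraries, as given above.

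**Figure D5:**
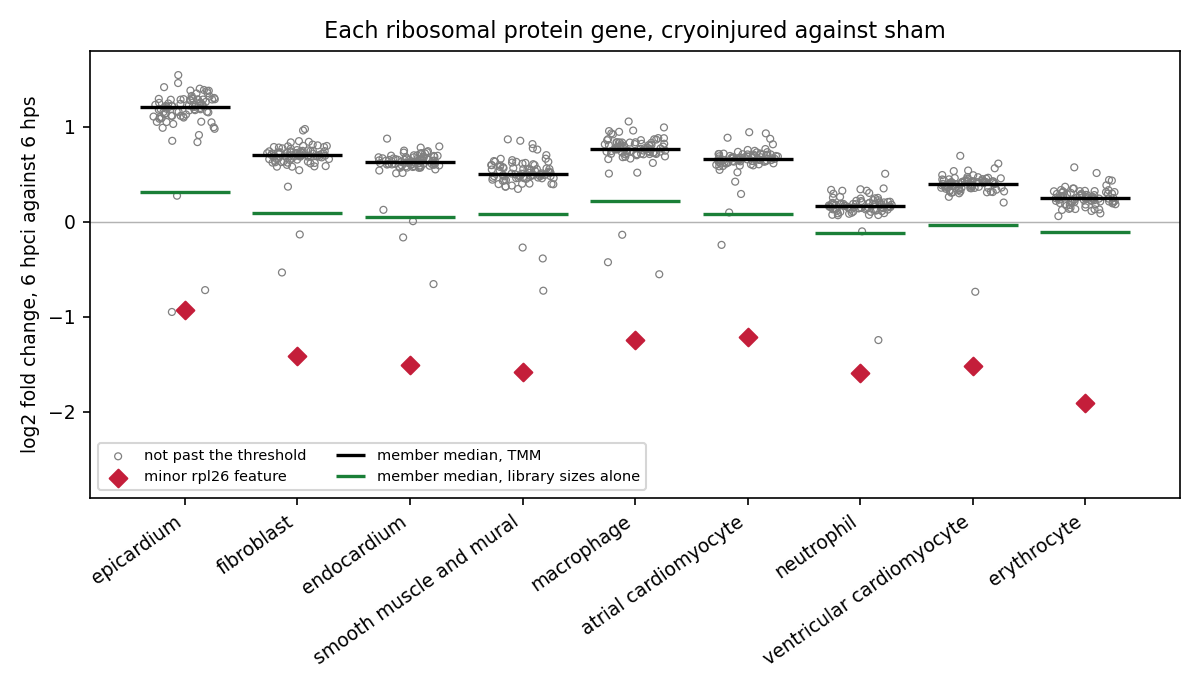
The log2 fold change of each ribosomal protein gene at 6 hpci against 6 hps by class, with TMM scaling. Open circles are members, none past an adjusted p of 0.05, red diamonds are the minor rpl26 feature, and lines are the member medians with TMM scaling (black) and with library sizes alone (green). The black median reaches 1.21 in epicardium, while the green medians lie between -0.12 and 0.31.

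Whether the response to injury differed between cell types was tested as the group effect in macrophages minus that in ventricular cardiomyocytes. edgeR called 0 of 84 members, where 0.0% of all genes were called. None of the members reached an unadjusted p of 0.05, where 3.29% of all genes did, and DESeq2 was not run for this contrast. The median difference was 0.45 on the log2 scale with 81 of 84 members above 0, and the median standard error of a member was 0.35. The largest positive values were rps23 (0.60, SE 0.35), at the decoding centre, and rplp2l (0.60, SE 0.39).

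Pairs of related cell types were also compared. Between atrial and ventricular cardiomyocytes a single member passed, rps19bp1, which fell by 0.70 (SE 0.22, adjusted p = 0.024) in atrial cells, where 6.93% of all genes fell. Its levels were 15.7, 12.6, 12.7 and 7.89 CPM in atrial and 19.1, 16.0, 15.1 and 13.9 CPM in ventricular cells, lower in each of the 4 libraries. It did not pass when any of the 4 libraries was left out, with library sizes alone, with a limit of 30% mitochondrial UMIs or with the stricter gate. The median over all 84 members was -0.05, against -0.08 for all genes.

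Between macrophages and neutrophils 2 members rose in macrophages, among them rplp2l by 0.68 (adjusted p = 0.042), where 3.41% of all genes rose. At an unadjusted p under 0.05 they numbered 69, all higher in macrophages, where 14.2% of all genes were at that level in either direction. rplp2l was 5060, 4646, 5383 and 7362 CPM in macrophages and 3507, 4517, 3504 and 3828 CPM in neutrophils. The classes did not overlap, but no member passed with DESeq2 size factors, with a limit of 30% mitochondrial UMIs, or without sham replicate 1, cryoinjured replicate 1 or cryoinjured replicate 2, whereas 11 members passed with library sizes alone.

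Other genes of translation were set beside the members in 3 lists. The first held genes for proteins that work at the ribosome, among them rack1, a scaffold on the small subunit, and naca and btf3, which meet the nascent chain. In epicardium 7 of its 7 tested genes rose, as did 9 of 12 elongation and poly(A) binding factors while 1 fell, and 20 of 25 ribosome biogenesis genes, where 14.9% of all genes rose. naca rose by 0.74 (SE 0.14), eef1da, a subunit of the exchange factor of elongation, by 1.08 (SE 0.13) and mybbp1a, a nucleolar protein, by 1.75 (SE 0.22). In neutrophils 6 of 7, 4 of 12 and 1 of 25 fell and none rose, where 4.45% of all genes fell, so the last count was near that background.

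The biogenesis list did not always go with the members. In endocardium 12 of 25 biogenesis genes rose, led by fbl, the methyltransferase of ribosomal RNA (0.93, SE 0.15), nop2 (0.92, SE 0.16) and nop56 (0.83, SE 0.15), while 1 ribosomal protein gene rose and 24.6% of all genes rose. In fibroblasts 11 of 25 rose, where 10.9% of all genes did, with nop2 at 1.08 (SE 0.17) and dkc1, a pseudouridine synthase, at 1.00 (SE 0.22). In erythrocytes 13 of 25 fell, as nop2 by 2.01 (SE 0.35), while 3 of 7 genes of the first list rose, where 12.3% of all genes fell and 5.05% rose.

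After injury none of the genes of these lists was called in any class. The median of the first list was between 0.25 and 1.1 and that of the elongation factors between 0.22 and 0.96, near the members, and all 7 genes of the first list were above 0 in every class. The biogenesis list stood the other way, with medians from -0.69 to -0.03. Its share of the non-mitochondrial UMIs was 0.066% and 0.058% in sham and 0.041% and 0.039% in cryoinjured macrophages, and 0.086% and 0.123% against 0.039% and 0.043% in epicardium. In both classes the groups did not overlap, with the cryoinjured libraries lower, where 47.4% of all genes in macrophages and 59.8% in epicardium lay lower in the same way.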

How the data were processed

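The deposited values were whole-number counts of UMIs per gene and barcode, made by the authors with Cell Ranger 4.0.0 (version per the submitters' processing notes) on GRCz11 with an added RFP gene, labeled and unlabeled RNA together; labeled RNA alone was not analysed here. Barcodes with at least 500 UMIs and at most 50% mitochondrial UMIs were kept, 57436 of 78127. A cell entered a class with 3 or more markers at 5 times the library mean. A lead of 2 over the next class was asked only where several classes reached 3 markers. Chambers differed by 4 times between chamber genes, and erythrocytes had at least 50% haemoglobin. The markers were fixed but the thresholds were set after seeing the data. Cells with markers of several classes (1423) and 22080 in no class were left out, and no doublet caller was run. The members and lists were chosen with earlier results of these data known.

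For each library, the UMIs of all cells of a class were added up and tested with edgeR 4.0.16 (R 4.3.3; filterByExpr with a minimum count of 10, TMM scaling, quasi-likelihood test, Benjamini-Hochberg adjustment over all genes tested, threshold 0.05); DESeq2 1.42.0 was an alternative. Class contrasts were fitted over all classes with the library as a term, and groups within each class. Both of these edgeR fits were also tried on simulated counts, whose spread was set by hand and not taken from these libraries. DESeq2 was not tried in this way. Hearts were pooled, so p-values measure the spread between 2 pools per group. By the study's sample table a replicate number marks libraries made by the same operator, so the numbers pair the samples; deviations of same-numbered libraries correlated at -0.02 in neutrophils and at 0.20 to 0.43 in the other 8 classes. Shares, subunit ratios and shares of copies are descriptions with no test. Alternatives were scaling, filters, gates, left-out libraries and the replicate block, and 2 (muscle RNA taken out, members by the name table) were added after seeing the data. Muscle RNA was taken out by subtracting the ventricular profile of the same library, scaled to 4 shared muscle genes, which treats all of that RNA as spilled.

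Named genes were all members of pairs of copies, rps19bp1, the 5 highest of each subunit, the 3 largest rises and falls past the threshold per class, 5 each way in the pairs of classes, the 5 highest and 5 lowest fold changes (mean of at least 50 CPM) after injury in macrophages and ventricular cardiomyocytes, and the highest and lowest elsewhere. Start site sequences were not used here. Some genes that this rule names are not reported here.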

Additional observations from a re-analysis of the deposited data

Results flagged for a closer look

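The change of the ribosomal protein share after injury went in opposite directions in neutrophils and in 3 other classes. In neutrophils each cryoinjured library lay under both sham libraries, and in the other class each lay above them. The change in neutrophils minus that in epicardium was -11.6 percentage points, the change in neutrophils minus that in smooth muscle and mural cells was -5.86 points, and the change in neutrophils minus that in macrophages was -8.22 points. The difference was not tested in any of these, and an exact permutation test of 2 libraries against 2 within a class cannot go below p = 0.33. With the stricter marker gate the epicardial groups overlapped (53.7% and 45.7% against 52.1% and 53.3%). Without haemoglobin in the total the neutrophil groups overlapped, and with muscle RNA taken out the groups of macrophages and of smooth muscle and mural cells overlapped.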

How the results depend on the processing

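Of 1881 alternative values, the counts of members called after injury kept within 1.5 times their main value in 100 of 108, those of class contrasts in 54 of 90, and the contrast of injury effects in 10 of 10. The fit with the replicate block called 0 members after injury in every class, as without it. At an unadjusted p under 0.05 the paired fit gave 77 in macrophages, 52 in smooth muscle and mural cells and 36 in epicardium. The share of all genes at that level in the paired fit is not given, and the shares of the unpaired fit do not apply to it. For the other alternatives below it is not given either, so none of these counts can be set against a background.

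With library sizes alone the member median after injury was -0.030 in ventricular cardiomyocytes, -0.12 in neutrophils and -0.10 in erythrocytes; rpl11, rps2, rpl36 and rplp2 stood at -0.12, -0.15, -0.12 and -0.18 in ventricular cardiomyocytes and rplp2 and rps27.2 at -0.036 and -0.024 in macrophages; rpl22l1 stood at 0.068 in endocardium against other classes, and rpl22l1, rplp0 and rpsa at -1.30, -1.23 and -1.16 in erythrocytes. Calls were then 69 in ventricular and 17 in atrial cardiomyocytes, 79 in endocardium, 80 in fibroblasts, 69 in smooth muscle and mural cells, 67 in macrophages, 1 in neutrophils, 84 in erythrocytes, 0 between chambers and 11 between macrophages and neutrophils.

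DESeq2 size factors gave 81 and 82 calls in ventricular and atrial cardiomyocytes, 2 in smooth muscle and mural cells, 1 in macrophages, 27 in erythrocytes and 0 between macrophages and neutrophils. No filter gave 19, 34 and 58 in ventricular cells, atrial cells and fibroblasts. At most 30% mitochondrial UMIs gave 20 in ventricular cells, 67 in fibroblasts, 0 in both pairs of classes, share changes of 6.40 points in epicardium and 4.69 in smooth muscle and mural cells, 59.5% for rps26l there and 32.2% for rps27.2 in endocardium. Leaving mitochondrial and haemoglobin genes out of the fit gave 56 in fibroblasts, 2 in smooth muscle and mural cells, 1 in macrophages and 20 in erythrocytes.

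The stricter gate gave 23 in atrial cells, 2 in smooth muscle and mural cells, 21 in erythrocytes and 0 between chambers, and share changes of 2.98 points in epicardium and -4.36 in neutrophils. In erythrocytes it gave a share of 6.08%, a subunit ratio of 1.395, and copy shares of 0.301% (rpl7l1), 53.9% (rplp2l), 16.4% (rps27.2) and 0.00582% (rps8b); elsewhere 59.5% (rps26l) and 0.0921% (rps8b) in smooth muscle and mural cells and 31.9% (rps27.2) in endocardium. Medians over cells gave 0 for rpl7l1 and rps8b in all 9 classes, 47.0%, 43.4% and 40.9% for rplp2l in endocardium, smooth muscle and mural cells and neutrophils, 18.3% for rpl22l1 in neutrophils, a share of 27.6% in neutrophils and a change of 3.90 points in epicardium.

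Taking muscle RNA out gave shares of 45.9% in endocardium, 56.8% in epicardium, 53.3% in fibroblasts, 50.4% in smooth muscle and mural cells, 46.9% in macrophages, 37.4% in neutrophils and 5.80% in erythrocytes, and changes of 6.17, 0.244 and -8.06 points in epicardium, smooth muscle and mural cells and neutrophils. Of all UMIs the shares were 19.0% (ventricular), 21.6% (atrial), 30.2% (endocardium), 39.99% (epicardium), 32.3% (fibroblast), 29.3% (smooth muscle and mural, change 1.93 points), 28.2% (macrophage) and 22.6% (neutrophil). Outside mitochondrial and haemoglobin genes erythrocytes had 18.6%, and the changes were 4.91 points in smooth muscle and mural cells and -1.10 in neutrophils. The cause was not tested for any of these.

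Leaving out a library left a group with a single library in the fits of injury against sham, so calls in these fits are not counted here. The member median of these fits ranged from -0.11 to 0.32 in neutrophils. Class calls ranged over 37 to 73 in ventricular cells, 2 to 36 in endocardium, 14 to 41 in fibroblasts, 0 to 2 in smooth muscle and mural cells, 0 to 1 in macrophages, 6 to 80 in neutrophils and 15 to 26 in erythrocytes, with 0 to 0 between chambers and 0 to 2 between macrophages and neutrophils. In 1 of 63 combinations of pair and class a median over cells was not run, for under 10 cells in a library. With 2 libraries per group, and with rps8b and rpl7l1 at few UMIs, small differences were not detectable at this depth.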

Other observations

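Apart from the rpl26 split, some members differed between libraries in their log2 level relative to the median member of the same class and library. Values are deviations from the mean of the 4 libraries, averaged over the 8 classes without erythrocytes. Single classes can depart from them. The median range of a member over the libraries was 0.22, and 12 members, both rpl26 features among them, had a range over 0.5. After the minor rpl26 feature the largest ranges were those of 2 members of low level, rpl7l1 (1.81) and rps19bp1 (1.00). Their values were 0.78, 0.41, -0.16 and -1.03 for rpl7l1 and 0.29, 0.47, -0.23 and -0.52 for rps19bp1, in the order of libraries given next. The large subunit genes rpl3 (-0.08, 0.05, -0.34 and 0.38 in sham 1, sham 2, cryoinjured 1 and cryoinjured 2) and rpl4 (-0.02, 0.02, -0.31 and 0.31) and the small subunit gene rps6 (-0.09, 0.02, -0.25 and 0.32) were on average lowest in cryoinjured replicate 1 and highest in cryoinjured replicate 2. In plain CPM, which is not relative to the median member, rps6 in macrophages was lowest in sham replicate 2 (2237, 2105, 2125 and 3634 CPM). The opposite order of the cryoinjured libraries was seen in the averages of rpl29 (0.26, -0.35, 0.22 and -0.12) and rps29 (0.13, -0.16, 0.30 and -0.26). The stalk gene rplp1 had a range of 0.04. The pattern was noticed after the values were seen.

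The clone-named feature that the reference table calls rps20 was as abundant as the members, with 3206, 3144, 3824 and 2712 CPM in ventricular cardiomyocytes and 7035, 5989, 6664 and 8147 CPM in endocardium in the same order of libraries.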
